A study of Arabidopsis thaliana with 97 samples.

Results

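The response of the ethylene-insensitive mutant ein2-5 to flg22 at 120 min was described from 6 EXPRSS Tag-seq libraries of Arabidopsis thaliana leaf discs. All discs in these libraries carried the ein2-5 allele in the Columbia background and came from 5-week-old plants. Of the 96 libraries of the series, 3 came from discs kept in 100 nM flg22 for 120 min and 3 from discs kept in water for 8 min. They were taken by their titles, and loci counted on the sense strand were used. The series holds other flg22 times and other genotypes, and libraries of ein2-5 at 60 and 180 min and of the wild type Col-0 in water and at 120 min, 3 of each, were used here for comparison. A water group exists at 8 min only, so flg22 and a longer time in the dish changed together and cannot be told apart. EXPRSS sequences 1 tag near the 3′ end of each cDNA and keeps its strand, so that a level needs no correction for gene length. Levels are given as TPM, tags per 1000000 after TMM normalisation, with the values of replicates 1, 2 and 3 in that order and means as ± SD (n = 3).

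The peptide flg22, a conserved stretch of bacterial flagellin, is bound at the cell surface by the receptor kinase FLS2, which pairs with the co-receptor BAK1 and signals through the cytoplasmic kinase BIK1, calcium-dependent protein kinases and MAP kinase cascades. The outcome, pattern-triggered immunity (PTI), includes new transcription of defence genes, synthesis of tryptophan-derived metabolites and phenylpropanoids, and production of the hormones ethylene and salicylic acid. EIN2 is the membrane protein that carries the ethylene signal from the receptors to the transcription factors EIN3 and EIL1, and plants that lack it do not respond to ethylene. A change from water to flg22 in ein2-5 is therefore a response without the usual ethylene output.

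The water libraries held 1434587 to 2277059 tags and the 120 min libraries 1166995 to 1710123 tags. EIN2 itself, the mutated gene, was measured at 7.15, 6.31 and 2.34 TPM in water and at 1.60, 5.87 and 3.37 TPM at 120 min, so both groups were low and overlapped. Over all 24 ein2-5 libraries EIN2 ranged from 0 to 10.9 TPM (median 3.57), against 2.67 to 29.0 TPM (median 12.2) in the 24 Col-0 libraries. Each replicate number of ein2-5 had a sequencing lane of its own, and the lanes differed in the share of tags from the plastid 23S rRNA, which was 10.05 to 40.9% in water and 9.52 to 30.7% at 120 min. Water replicate 2 stood apart. Its level was the lowest of the 3 water libraries for 18 of 18 PTI output markers and the highest for 7 of 11 jasmonate synthesis genes, and results that rest on it are given without it below. The summed level of 5 mesophyll markers was 14346 to 22390 TPM in water and 7158 to 11730 TPM at 120 min, and that of 5 guard cell markers 20.5 to 40.7 and 7.99 to 11.8 TPM. Of 5 root markers, PYK10 and SCR were detected, with a summed level of 19.9 to 43.5 TPM in water and 11.8 to 28.5 TPM at 120 min that was highest in lane 2, and RHD6, COBL9 and EXPA7 had 0 tags. Of 5 pollen markers, TUA1 was detected and the other 4 had 0 tags. In discs of several cell types, fewer cells of a type and less RNA per cell cannot be told apart. The labels number the replicates without saying whether they came from separate plants, so the p-values measure the spread between these libraries.

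Of 14569 sense genes tested, 3405 (23.4%) were called changed between water and 120 min at an adjusted p under 0.01 (edgeR), 1279 of them higher (8.78%) and 2126 lower (14.6%). The median log2 change of all genes tested was -0.09. The change was over 2-fold in 3123 and over 8-fold in 519 of the called genes. The 3 libraries of one group lay above the 3 of the other for 1237 of the 1279 called higher and 2069 of the 2126 called lower, where 42.7% of all genes tested did not overlap. Calls and separation come from the same 6 libraries, so the separation of called genes follows largely from the call and is no further support. With each of the 6 libraries left out in turn, 1549 of the 3405 genes kept their call every time, and the fewest, 2027, kept it without water replicate 2, when 2057 genes were called in all. Without both libraries of lane 2, 1340 genes were called, and with only these 6 libraries in the fit 1131. The share of calls that were higher was 37.6%, and 50.0% with organelle loci left out of the scaling, which moved the median log2 change from -0.09 to 0.08. Across the time course of ein2-5, 442 of the 1279 genes called higher had their highest mean at 120 min, 351 at 60 min and 218 at 180 min. Of the 2126 called lower, 971 had their lowest mean at 120 min and 651 at 180 min. These genes were chosen by their difference between water and 120 min, which favours an extreme mean at 120 min. When the response peaks was thus not tested.

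The genes with the largest rises were low or absent in water. AT2G43590, annotated as a chitinase, had 0, 2.1 and 0 TPM in water and 50.3, 36.9 and 37.0 TPM at 120 min, from 3 and 173 tags, a ratio of 63.8 (95% counting interval 21.5 to 312). AT1G10417, annotated as a RUN/FYVE domain protein, went from 3 to 96 tags, a ratio of 35.4 (11.8 to 175). The endoplasmic reticulum chaperone BIP3, the heat shock protein HSP23.6, the cytochrome P450 gene CYP71A18 and the peptidyl-prolyl isomerase gene AT5G48570 were also among the 8 largest rises. For CYP71A18 the level was 1.95, 0 and 0.585 TPM in water and 13.6, 34.4 and 10.1 TPM at 120 min, a log2 change of 4.33 ± 0.74 (SE, adjusted p = 5.75e-06). AT1G30780, an F-box associated protein, and AT1G14730, a cytochrome b561 family protein, completed the 8 with log2 changes of 4.5 ± 0.71 and 4.25 ± 0.60. These 8 genes were chosen among those without overlap between water and 120 min, so their separation is not a result.

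The largest falls ended at or near 0 tags, and several concerned the chloroplast. NdhT and CRR7, which serve the chloroplast NADH dehydrogenase-like complex, had 76 and 207 tags in water and 0 and 1 tag at 120 min. NdhT was thus at least 22.9-fold lower, with the floor of 3 tags over the group, and CRR7 lower by a ratio of 187 (33.2 to 7428). GNC, a GATA factor that promotes greening, stood at 9.75, 29.5 and 22.8 TPM in water and at 0 in every library at 120 min, at least 28.9-fold lower. AT2G03550, an alpha/beta hydrolase, was at least 56.1-fold lower and the wall enzyme gene XTH25 at least 31.3-fold lower. The RING/U-box gene AT5G47610, the GDSL lipase gene ARAB-1 and the subtilase gene AT3G14240 were lower by at least 24.1-, 20.8- and 17.5-fold. The 8 genes were chosen among those without overlap, so each had tags in every water library by the choice.

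**Figure D1:**
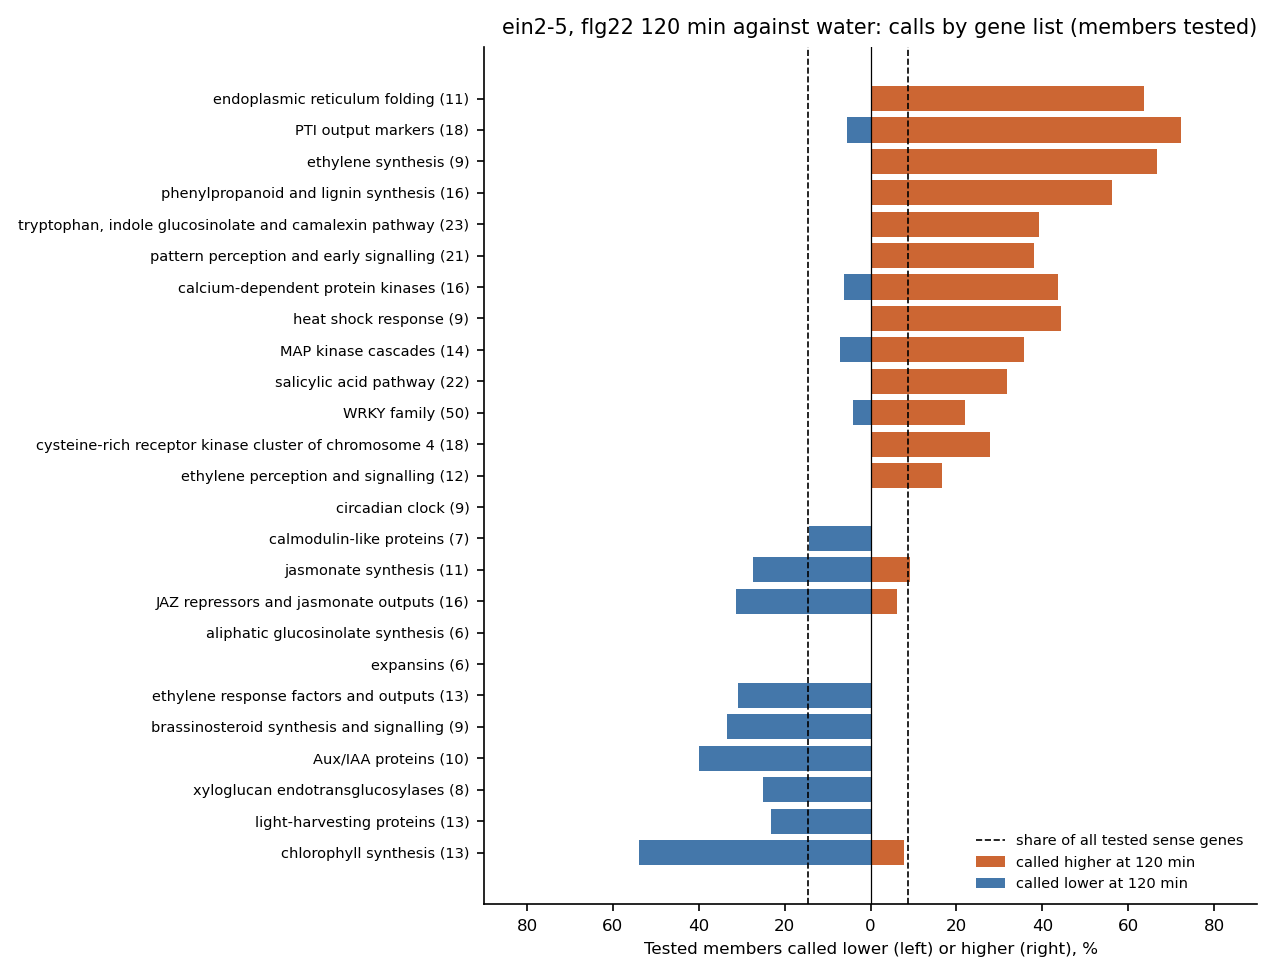
Share of the tested members of each gene list that was called higher (right) or lower (left) at 120 min flg22 against water in ein2-5, in percent, with lists ordered by their median log2 change and dashed lines at the share of all genes tested (8.78% higher, 14.6% lower). PTI output markers (13 of 18), ethylene synthesis (6 of 9) and endoplasmic reticulum folding (7 of 11) reach furthest to the right, and chlorophyll synthesis (7 of 13) furthest to the left.

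Among 21 genes of pattern perception and early signalling, 8 were called higher and none lower, with a median log2 change of 0.88 where the median of all genes tested was -0.09. BAK1, the co-receptor, had 94.9, 47.0 and 62.6 TPM in water and 231, 243 and 209 TPM at 120 min (log2 change 1.74 ± 0.26, adjusted p = 3.27e-07). Every 120 min library thus lay more than 2-fold above every water library. CERK1, the chitin receptor kinase, rose by 1.76 ± 0.32 (log2, adjusted p = 1.07e-05), BIK1 by 1.15 ± 0.21 (1.84e-05) and PUB22, a ubiquitin ligase that dampens PTI, by 1.54 ± 0.32 (0.000135). FLS2 itself stood at 41.6, 7.01 and 19.3 TPM in water and 58.3, 41.1 and 28.6 TPM at 120 min, groups that overlapped and did not pass the test (adjusted p = 0.107, or 0.00966 with the replicate as a block). RBOHD, the NADPH oxidase of the oxidative burst, was not called either (75.7 ± 2.72 against 47.6 ± 16.8 TPM, adjusted p = 0.0484). BAK1, BIK1, CERK1 and PUB22 kept their calls with each library left out in turn, and without water replicate 2 the list had 6 calls.

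In the MAP kinase cascades, 5 of 14 tested genes were called higher and 1 lower (median log2 change 0.75), against 8.78% and 14.6% of all genes tested. MPK4 and MPK6, both activated by flg22 as proteins, rose in transcript. MPK6 had 37.7, 35.1 and 40.4 TPM in water and 73.5, 83.1 and 88.1 TPM at 120 min (log2 change 1.11 ± 0.22, adjusted p = 5.57e-05), and MPK4 rose by 1.07 ± 0.20 (2.27e-05). The 2 groups were apart for both genes. MKK5, which acts above MPK6, MKK2 and MKS1 were also higher, but these calls ended without water replicate 2, where the list had 2 higher and 1 lower. MKK9 was the 1 gene lower, from 27.8 ± 5.93 to 11.5 ± 0.70 TPM (log2 change -1.28 ± 0.32, adjusted p = 0.00137), and its call ended without water replicate 3 (adjusted p = 0.0135) or 120 min replicate 3. MPK3 was not called, at 114 ± 62.6 TPM in water and 72.5 ± 21.5 TPM at 120 min. Of 16 calcium-dependent protein kinase genes, 7 were higher and 1 lower. CPK27 rose from 14.3, 2.1 and 14.6 TPM to 91.1, 85.6 and 96.6 TPM (log2 change 3.11 ± 0.42, adjusted p = 2.75e-08), and CPK7 by 1.93 ± 0.25 (8.58e-09). CPK13 fell from 8.45, 21.1 and 12.9 TPM to 2.40, 2.52 and 2.25 TPM, by 2.52 ± 0.44 on the log2 scale. CPK7, CPK9, CPK13, CPK27 and CPK29 kept their calls with each library left out.

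Of 18 PTI output markers, 13 were called higher and 1 lower (median log2 change 1.36). The 2 groups did not overlap for 13 of the 18, where 42.7% of all genes tested did not overlap. Many of these markers were first described as flg22-responsive, so their direction is not independent of earlier work. FRK1, the receptor-like kinase gene used as a standard PTI reporter, was already abundant in water at 499, 180.3 and 384 TPM and reached 1927, 2126 and 1624 TPM at 120 min (log2 change 2.42 ± 0.52, adjusted p = 0.000198). As ratios, though not in TPM, the water libraries of FRK1 differed more among themselves than those at 120 min. PROPEP2, a precursor of the immune peptide Pep2, went from 13, 1.40 and 11.1 TPM to 167, 137 and 124 TPM (4.03 ± 0.59, 1.5e-07). FOX1, a berberine bridge enzyme-like oxidase of the hydroxyindole carbonylnitrile pathway, went from 42.9, 4.21 and 35.7 TPM to 437, 337 and 643 TPM (4.08 ± 0.62, 4.01e-07). For both genes each library at 120 min lay far above each water library, of which replicate 2 was the lowest. NHL10 rose by 2.90 ± 0.47 (1.55e-06) and the transcription factor gene WRKY29 by 2.51 ± 0.42 (3.47e-06). The exception was PHI-1, called lower at 10.7 ± 6.52 TPM in water and 2.94 ± 1.15 TPM at 120 min (adjusted p = 0.00351). Its call ended when any 1 of 4 libraries was left out, the highest adjusted p being 0.0477 without water replicate 1. WRKY33 (adjusted p = 0.198), WRKY53 (0.449), WRKY30 (0.553) and RIN4 (0.0262, or 0.00435 with the replicate as a block) were the 4 markers not called. FRK1, NHL10, WRKY29, FOX1, CYP81F2, PROPEP2, PROPEP3 and SNAP33 kept their calls with each library left out. Without water replicate 2, 8 markers were higher, and without both libraries of lane 2, 6 were, FRK1 then having an adjusted p of 0.0217.

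**Figure D2:**
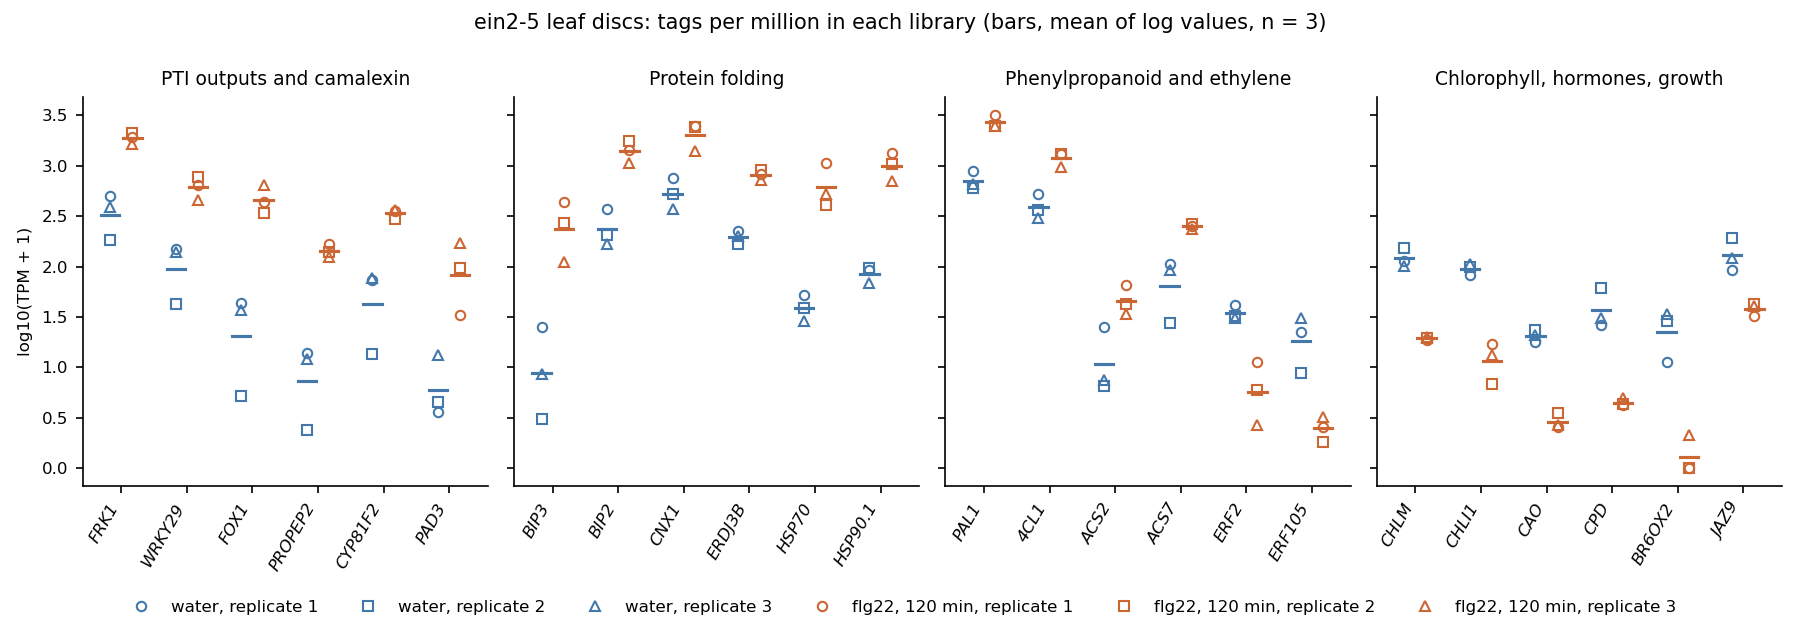
Level of 24 genes in the 6 ein2-5 libraries, as log10(TPM + 1) on the vertical axis, in 4 panels of PTI outputs, chaperones, phenylpropanoid and ethylene genes, and genes that fell. Blue marks stand for water and orange for 120 min flg22, with circles, squares and triangles for replicates 1, 2 and 3 and bars at the mean of the log values. In water, replicate 2 lies lowest for FRK1 (180.3 TPM against 499 and 384), and the 120 min libraries of FRK1 lie between 1624 and 2126 TPM.

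Chaperones of the endoplasmic reticulum, where secreted and membrane proteins fold, were mostly higher: 7 of 11 were called higher and none lower, with a median log2 change of 1.67. BIP3, the HSP70 chaperone of the reticulum that is induced by unfolded proteins, had 24.1, 2.1 and 7.61 TPM in water and 439.5, 272 and 110 TPM at 120 min (log2 change 4.58 ± 0.70, adjusted p = 4.03e-07). Its libraries spread widely in each group without touching the other group. BIP2 rose from 373, 202 and 165 TPM to 1424, 1739 and 1071 TPM (2.52 ± 0.46, 1.26e-05) and BIP1 by 2.1 ± 0.44, though the 2 genes are nearly identical and share tags. ERDJ3B, a co-chaperone needed for surface receptor biogenesis, rose by 2.05 ± 0.40 (4.79e-05). CNX1, a lectin chaperone of glycoproteins, rose from 546 ± 194 to 2086 ± 587 TPM (adjusted p = 0.000476). CRT3, the calreticulin that folds the receptor EFR, stood at 133 ± 58.2 against 115 ± 45.1 TPM and was not called. BIP1, BIP2, BIP3, CNX1 and ERDJ3B kept their calls with each library left out, and 4 members were called without lane 2.

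Of 9 tested cytosolic and organellar heat shock genes, 4 were called higher, none lower and 5 not called (median log2 change 0.75). HSP18.2, listed but with too few tags to be tested, had 12 tags in water and 0 at 120 min. HSP70 had 51.4, 37.9 and 28.1 TPM in water and 1052, 404 and 524 TPM at 120 min (4.08 ± 0.71, adjusted p = 6.15e-06). HSP90.1 had 91.0, 94.7 and 67.9 TPM in water and 1344, 1040 and 703 TPM at 120 min (3.60 ± 0.57, 9.06e-07). Both were thus more than 7-fold higher in every 120 min library than in any water library. HSP23.6, a mitochondrial small heat shock protein, went from 2 to 60 tags, a ratio of 33.2 (8.79 to 280), with adjusted p = 0.0103 without lane 3. HSP101, a disaggregase, was called (33.2 ± 15.8 against 6.19 ± 1.47 TPM, adjusted p = 0.0083) but not when any 1 of 5 libraries was left out, the adjusted p then reaching 0.0592.

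Ethylene synthesis genes were higher at 120 min in these plants, in which EIN2 is mutated: 6 of 9 tested were called higher and none lower (median log2 change 1.20). ACS2, which makes the ethylene precursor ACC, had 24.1, 5.61 and 6.44 TPM in water and 63.9, 42.0 and 33.1 TPM at 120 min (1.93 ± 0.42, adjusted p = 0.000225). Water replicate 1 was closest to the 120 min libraries, and the groups did not overlap. MTO3, which makes S-adenosylmethionine, the precursor of ACC, rose by 1.40 ± 0.28 (5.91e-05), and these 2 genes kept their calls with each library left out. ACS7 had 105, 26.7 and 90.7 TPM in water and 250.1, 264 and 232 TPM at 120 min (1.74 ± 0.40, 0.000461), and ACO4, an ACC oxidase, 268 ± 33.4 and 544 ± 161 TPM. The calls of ACS7 and ACO4 ended without water replicate 2 (adjusted p = 0.0172 and 0.0224), when 2 of the 9 genes were called. ACS6, a substrate of MPK6, was not called (38.7 ± 2.62 against 19.3 ± 11.3 TPM, adjusted p = 0.0163, or 0.00816 with the replicate as a block).

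Of 12 genes of ethylene perception and signalling, 2 were called higher, the receptor gene EIN4 (7.03 ± 1.42 to 16.5 ± 3.84 TPM) and the kinase gene CTR1 (26.6 ± 3.62 to 51.5 ± 10.8 TPM), and neither call held with each library left out. Without water replicate 2 no member of this list was called. Of all genes tested, 8.78% were called higher. Among 13 ethylene response factors and outputs, 4 were called lower and none higher (median log2 change -1.14). ERF105 fell from 21.4, 7.72 and 29.9 TPM to 1.60, 0.839 and 2.25 TPM, by 3.52 ± 0.61 on the log2 scale (adjusted p = 5.13e-06). ERF2 fell from 40.3, 31.6 and 29.9 TPM to 10.4, 5.03 and 1.68 TPM, by 2.63 ± 0.51 (4.33e-05). The 2 genes did not overlap between groups and kept their calls with each library left out. ERF104 and PR4, a chitin-binding protein induced by ethylene, were lower (log2 -1.74 ± 0.41 and -1.21 ± 0.35), and both calls ended without water replicate 3 (adjusted p = 0.0328 and 0.0591). The defensin gene PDF1.2, a standard ethylene and jasmonate output, had 3 tags in water and 1 tag at 120 min.

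In the salicylic acid pathway, 7 of 22 tested genes were called higher and none lower (median log2 change 0.64), against 8.78% and 14.6% of all genes tested. ICS1, which commits chorismate to salicylic acid, had 83.9, 20.3 and 51.5 TPM in water and 376, 293 and 162 TPM at 120 min (2.41 ± 0.62, adjusted p = 0.00156), and its call ended without water replicate 2 (0.0259). NIMIN2, an interactor of the receptor NPR1, rose from 48.1, 15.4 and 27.5 TPM to 226, 139 and 78.6 TPM (2.27 ± 0.45, 5.05e-05). WRKY62 rose from 11.7, 12.6 and 13.5 TPM to 52.7, 62.1 and 53.3 TPM (2.14 ± 0.43, 9.04e-05). Of the list, NIMIN2 and WRKY62 kept their calls with each library left out, and they were the 2 called without water replicate 2. PR1, the classical salicylic acid output, was low and not called, at 11.4 ± 7.38 TPM in water and 4.80 ± 4.68 TPM at 120 min. In the cluster of cysteine-rich receptor kinases on chromosome 4, 5 of 18 tested genes were called higher and none lower (median log2 change 0.38). The share called over all genes tested was 23.4%, with 8.78% higher. CRK20 rose from 22.1, 4.21 and 9.95 TPM to 65.5, 75.5 and 54.5 TPM (2.41 ± 0.47, 3.84e-05) and was the 1 member called without water replicate 2. CRK7 went from 4.21 ± 1.92 to 25.2 ± 4.0 TPM, and its adjusted p rose from 0.00118 to 0.0154 without that library.

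Indole metabolites made from tryptophan include camalexin, the main phytoalexin of Arabidopsis, and indole glucosinolates. Of 23 tested genes on this route, 9 were called higher and none lower, with a median log2 change of 1.01, or 0.75 with MYB122, at 0 tags in water, set to its bound. Replicate 1 was the highest library for 19 of the 23 genes in water and for 19 at 120 min, and replicate 2 the lowest in water for 16. TSB1, a tryptophan synthase subunit, rose from 383, 187 and 273 TPM to 878, 867 and 996 TPM (1.70 ± 0.25, adjusted p = 1.75e-07). PAD3, which completes camalexin, rose from 2.60, 3.51 and 12.3 TPM to 32, 95.7 and 170.1 TPM (3.97 ± 0.81, 9.81e-05). CYP81F2, which modifies indole glucosinolates, rose from 72.8, 12.6 and 75.5 TPM to 354, 297 and 359.9 TPM (2.64 ± 0.49, 2.17e-05), and CYP71A12 by 3.05 ± 0.67 (0.000272), although it shares tags with CYP71A13. The 4 genes were separated between the groups, and they kept their calls with each library left out and were the 4 called without water replicate 2. Among the genes not called, CYP79B2, which turns tryptophan into indole-3-acetaldoxime, had 82.6, 13.3 and 17.56 TPM in water and 92.7, 56.2 and 24.7 TPM at 120 min (adjusted p = 0.429), and the regulator MYB51 stood at 41.0 ± 22.0 and 36.6 ± 14.1 TPM (0.711).

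Phenylpropanoid and lignin synthesis had 9 of 16 tested genes called higher and none lower (median log2 change 1.09). PAL1, the entry enzyme that deaminates phenylalanine, had 892, 605 and 661 TPM in water and 3187, 2464 and 2495 TPM at 120 min (1.92 ± 0.44, adjusted p = 0.000429). PAL2 rose by 1.89 ± 0.41 (0.000203), and 4CL1, which activates the acids to CoA esters, from 523, 361 and 305 TPM to 1303, 1313 and 973 TPM (1.59 ± 0.35, 0.000221). The 3 genes kept their calls with each library left out. C4H, the cinnamate hydroxylase, stood at 1992 ± 345 and 5202 ± 719.7 TPM, with adjusted p = 0.00239, or 0.0243 without water replicate 2. Without that library 5 members were called, and 1 without both libraries of lane 2.

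Jasmonate genes moved in both directions and depended on 1 library. Of 11 synthesis genes, the cyclase gene AOC3 was called higher and LOX2, AOS and AOC2 lower (median log2 change -0.41). The shares over all genes tested were 8.78% higher and 14.6% lower. LOX2 had 438, 1539 and 256 TPM in water and 294, 260.1 and 267 TPM at 120 min, so that water replicate 2 alone stood far above the other libraries and the groups overlapped. Its log2 change was -1.44 ± 0.42 (adjusted p = 0.0055), but -0.34 without water replicate 2 (adjusted p = 0.602). AOS, at 193, 575 and 152 TPM in water and 114, 58.7 and 65.7 TPM at 120 min, and AOC2 lost their calls in the same way (adjusted p = 0.0242 and 0.0312), and no member was called without that library. AOC3 went from 19.1 ± 6.28 to 58.3 ± 3.40 TPM (1.60 ± 0.37) and had an adjusted p of 0.0102 without it. Among 16 JAZ repressors and jasmonate outputs, 1 was higher and 5 were lower (median log2 change -0.77), and 8 were lower with the replicate as a block. JAZ9 fell from 91.7, 191 and 119 TPM to 31.2, 41.1 and 39.3 TPM, by 1.84 ± 0.34 (1.56e-05), and JAZ7 from 18.9, 13.3 and 12.3 TPM to 2.40, 1.68 and 1.12 TPM, by 3.07 ± 0.67 (0.000244). Both were separated between the groups and kept their calls with each library left out. MYC2, the main jasmonate transcription factor, was lower (log2 -1.57 ± 0.37), with adjusted p = 0.0435 without water replicate 2, and JAZ1 was higher (1.20 ± 0.27), with adjusted p = 0.0221 without it.

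Of 50 tested WRKY transcription factor genes, 11 were called higher and 2 lower (median log2 change 0.48). Of all genes tested, 8.78% were called higher and 14.6% lower, 23.4% in all. WRKY72 had 32.5, 9.82 and 17 TPM in water and 112, 113 and 106 TPM at 120 min (2.47 ± 0.42, adjusted p = 4.91e-06). WRKY17 rose from 80.6, 31.6 and 61.5 TPM to 149, 172 and 172 TPM (1.5 ± 0.32, 0.000187), and WRKY47 rose by 1.64 ± 0.36 (0.00024). With WRKY29 and WRKY62, these were the 5 members that kept their calls with each library left out. WRKY3 and WRKY49 were lower (log2 -2.02 ± 0.49 and -2.05 ± 0.56), but not without water replicate 2 (adjusted p = 0.0143 and 0.0180), where 5 members were higher and none lower.

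In the fit without a block, chlorophyll synthesis was the list with the largest share of genes called lower, 7 of 13, and 1 was higher (median log2 change -1.93). With the replicate as a block 11 were lower. CHLM, the magnesium protoporphyrin methyltransferase, had 112, 152 and 101 TPM in water and 17.58, 18.5 and 19.1 TPM at 120 min, a fall of 2.72 ± 0.39 on the log2 scale (adjusted p = 1.46e-07). CHLI1, a subunit of magnesium chelatase, fell from 81.3, 96.8 and 105 TPM to 16, 5.87 and 12.3 TPM, by 3.03 ± 0.50 (2.14e-06). The 120 min libraries were all several-fold below the water libraries for both genes. PORC, a protochlorophyllide oxidoreductase, fell by 2.81 ± 0.54 (3.18e-05), and CAO, which makes chlorophyll b, fell by 3.31 ± 0.66 (6.57e-05) to 8 tags in all. The exception was GSA1, an early enzyme of the shared tetrapyrrole route, which rose from 65.0, 70.2 and 53.3 TPM to 123, 144 and 111 TPM (1.00 ± 0.21, 0.0001). These 5 genes kept their calls with each library left out. The summed level of the mesophyll markers moved with this list, although none of the 5 was called by edgeR or DESeq2 (2 had an unadjusted p under 0.05, and 4 were called lower with the replicate as a block), and their part in the result was not tested.

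Genes of the light-harvesting proteins, which hold the chlorophyll of the antennae, gave fewer calls at a similar median change in the fit without a block. Of 13 tested, 3 were called lower, against 14.6% of all genes tested, and none higher, with a median log2 change of -1.92. The groups did not overlap for 9 of the 13, where 42.7% of all genes tested did not overlap. LHCA3 stood at 3171, 2008 and 1544 TPM in water and 992, 481 and 383 TPM at 120 min (log2 -1.86 ± 0.52, adjusted p = 0.00389). In both groups replicate 1 was the highest and replicate 3 the lowest. LHCB3 had 1185, 487 and 321 TPM in water and 223, 73.8 and 37.0 TPM at 120 min and was not called (adjusted p = 0.0236, or 2.58e-06 with the replicate as a block). Levels differed by lane, replicate 1 being the highest for 13 of 13 genes at 120 min and for 12 of 13 in water. With the replicate as a block, 11 of the 13 were called lower, the same count as in chlorophyll synthesis. None of the 3 calls held with each library left out, and none was made without lane 2.

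In brassinosteroid synthesis and signalling, 3 of 9 tested genes were called lower (median log2 change -1.20). CPD, a cytochrome P450 of brassinosteroid synthesis, fell from 25.4, 59.6 and 29.9 TPM to 3.20, 3.36 and 3.93 TPM, by 3.40 ± 0.54 (adjusted p = 8.91e-07). BR6OX2, which makes brassinolide, went from 112 to 2 tags, a ratio of 50.6 (13.7 to 423). The receptor gene BRI1 was lower too, at 9.66 ± 4.45 and 1.01 ± 0.59 TPM, with adjusted p = 0.0127 without water replicate 2, when the other 2 were the calls. Of 10 tested Aux/IAA auxin repressor genes, 4 were lower (median log2 change -1.44), and IAA11, from 24 to 1 tag, a ratio of 21.7 (3.54 to 892), was the 1 that kept its call with each library left out. Of 8 tested xyloglucan endotransglucosylase genes, which remodel the cell wall, XTH24 and XTH25 were lower. XTH24 had 419, 490.4 and 436 TPM in water and 125, 60.4 and 180.2 TPM at 120 min (log2 -1.88 ± 0.35, 1.99e-05), and both genes kept their calls. The calmodulin-like gene CML41, which acts at plasmodesmata, was the 1 of 7 called in its family. It went from 77.4, 23.1 and 67.9 TPM to 6.39, 12.6 and 14 TPM (log2 -2.33 ± 0.53, 0.000379). Of all genes tested, 14.6% were called lower.

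The step from 60 to 120 min was tested directly, since comparisons of either time with water share the water libraries. Of the genes tested, 432 were called higher (2.97%) and 635 lower (4.36%) at 120 than at 60 min, 1067 in all (7.32%), and 1857 were called with the replicate as a block. Endoplasmic reticulum chaperones were higher at the later time in 8 of 11 cases and none was lower (median log2 change 1.70, against 0.01 for all genes tested). CRT1B, a calreticulin, had 258, 248 and 162 TPM in water, 124, 38.1 and 72.3 TPM at 60 min and 758, 844 and 526 TPM at 120 min, a log2 change from 60 to 120 min of 3.18 ± 0.46 (adjusted p = 2.32e-07). Of these 3 groups it was thus lowest at 60 min and highest at 120 min. BIP3, CRT1A, CRT1B and ERDJ3B kept this call with each library left out. PHT1;4, a phosphate transporter, had the largest rise, from 9.06, 9.88 and 11.2 TPM at 60 min to 292, 312 and 449.7 TPM at 120 min (5.12 ± 0.53, 1.61e-11), and its water level of 192 ± 85.8 TPM did not pass the test against 120 min (adjusted p = 0.106, or 0.00626 with the replicate as a block). NRT1.8, a nitrate transporter, rose from 1.47 ± 0.76 to 46.4 ± 24.6 TPM, SPX1, a phosphate sensor protein, from 18.5 ± 5.00 to 305 ± 97.5 TPM, and HBI1, a growth-promoting bHLH factor, from 0.99 ± 1.16 to 15.9 ± 4.93 TPM. AT2G45850, an AT hook protein, rose from 1.98 ± 1.16 to 37.7 ± 1.74 TPM.

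Of the PTI output markers, 6 of 18 were called lower at 120 than at 60 min and none higher. WRKY30 had 426, 321 and 535 TPM at 60 min and 12, 13.4 and 14.6 TPM at 120 min, a fall of 4.99 ± 0.52 on the log2 scale (adjusted p = 1.95e-11), and was back within the range of its water libraries, 6.31 to 28.7 TPM. Of 21 genes of perception and early signalling 5 were lower and none higher, among them RBOHD, from 298 ± 10.5 to 75.7 ± 2.72 TPM (5.08e-08), and of 14 MAP kinase cascade genes 4 were lower and 1, MKK9, was higher, from 4.13 ± 1.72 to 11.5 ± 0.70 TPM. Of 11 jasmonate synthesis genes 6 were lower and none higher. LOX4 fell by 3.10 ± 0.36 (6.05e-10), AOC3 by 2.21 ± 0.35 and OPR3 by 2.05 ± 0.28, and these 3 and LOX3 kept their calls with each library left out. The largest falls were those of the NAC domain gene AT3G12910, from 110 tags at 60 min to 1 (a ratio of 114, 20.0 to 4535), of TDR1, an ERF family gene, from 78 tags to 0 (at least 26.9-fold lower) and of AT5G28610, from 129 tags to 3 (44.5, 14.9 to 218). AT1G59865 and the cytochrome P450 gene CYP82C3 fell by 5.36 ± 0.63 and 5.14 ± 0.51.

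From 120 to 180 min few genes passed the test, 33 in all (0.227%), 6 higher (0.0412%) and 27 lower (0.185%), with 1448 at an unadjusted p under 0.05 and 67 called by DESeq2, of which 37.3% were higher where edgeR had 18.18%. With the replicate as a block 146 were called, and with only these 6 libraries in the fit edgeR called 0, with 1052 at an unadjusted p under 0.05. Heat shock genes led the falls. HSP70 went from 1052, 404 and 524 TPM to 61.1, 36.7 and 19.9 TPM (log2 -4.08 ± 0.71, adjusted p = 0.000443), which overlaps its 3 water libraries, and HSP90.1 from 1029 ± 321 to 124 ± 41.4 TPM (-3.05 ± 0.55, 0.000873). The call of HSP70 ended without 180 min replicate 2 or 3 (adjusted p = 0.012 and 0.0198) and that of HSP90.1 without 180 min replicate 1 or 3 (0.0117 and 0.0303). Hop3, a co-chaperone of HSP70 and HSP90, AT5G51440, a small heat shock protein, and AT2G20560, a DnaJ protein, were the other 3 of the 5 largest falls. EDS5, of the salicylic acid pathway, fell by 2.27 ± 0.38 (0.000208). PHI-1 was higher again, from 2.94 ± 1.15 to 19 ± 4.5 TPM (2.62 ± 0.48, 0.000873), although not without 120 min replicate 2 or 180 min replicate 3 (adjusted p = 0.0213 and 0.0198). FLA13, a fasciclin-like arabinogalactan protein, rose from 94.6 ± 22.2 to 294 ± 62.2 TPM (1.63 ± 0.24, 2.45e-05). KLCR2, ENODL17 and SFP1 were the other 3 largest rises. Of the 33 genes, 5 kept their call with each library left out.

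**Figure D3:**
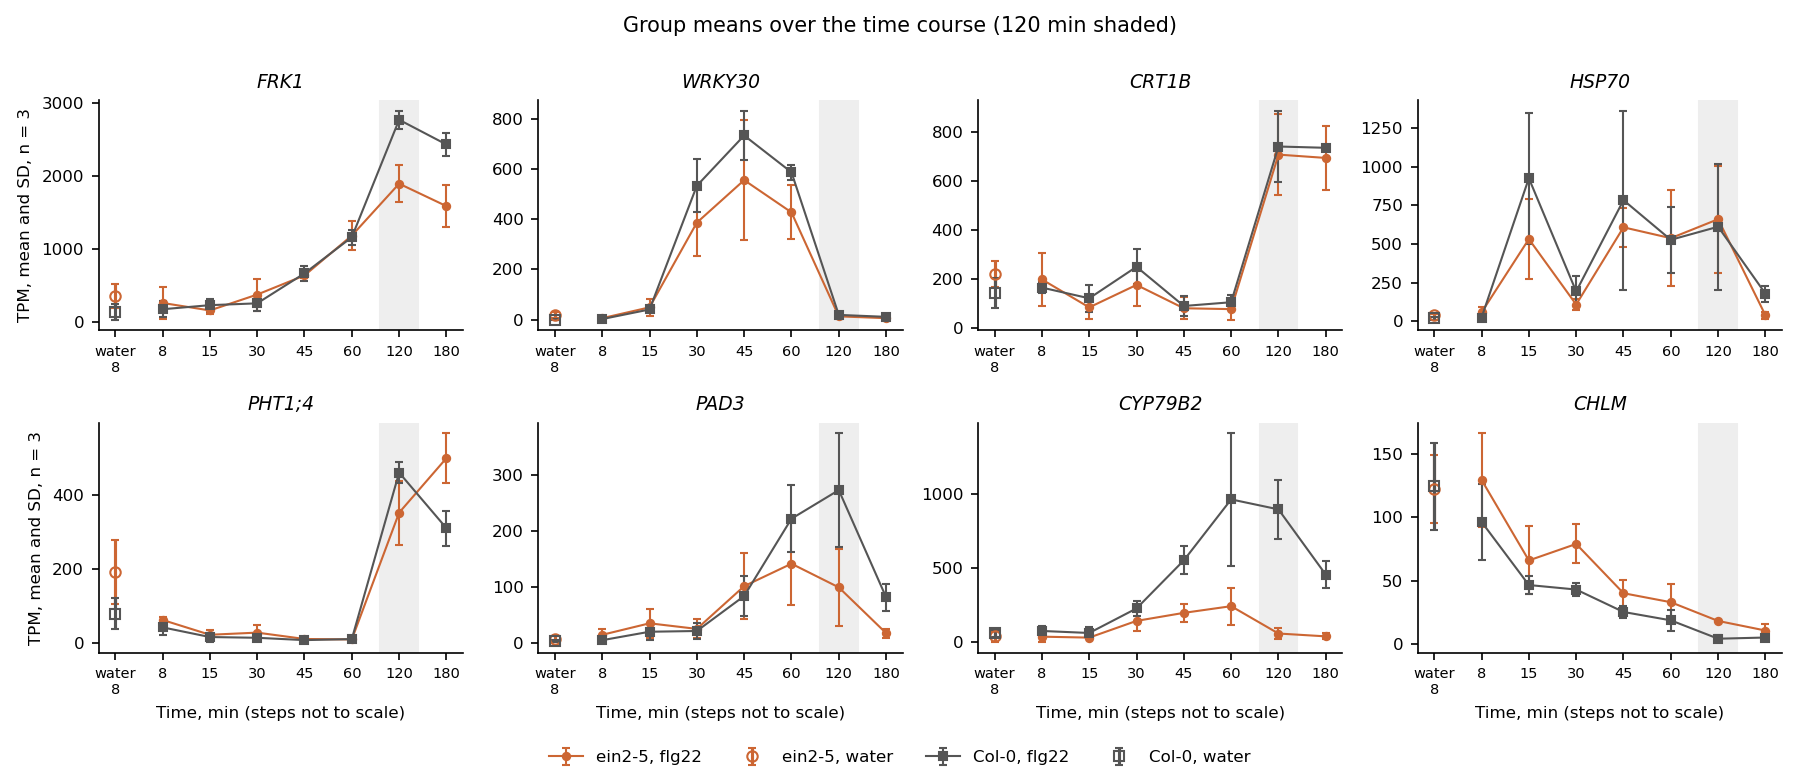
Mean TPM ± SD (n = 3) of FRK1, WRKY30, CRT1B, HSP70, PHT1;4, PAD3, CYP79B2 and CHLM in water and over the 7 flg22 times in ein2-5 and Col-0. In ein2-5, WRKY30 has its mean of 427 TPM at 60 min and 13.3 TPM at 120 min, CRT1B rises from 78.1 to 709 TPM over the same step, and HSP70 falls from 659.8 TPM at 120 min to 39.2 TPM at 180 min.

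The same change was then set against that of Col-0, whose 6 libraries are not shared with ein2-5. In Col-0, 2495 genes were called higher (17.1%) and 2944 lower (20.2%) at 120 min. Of the genes called higher, 1150 were called in both genotypes, 89.9% of those of ein2-5 and 46.1% of those of Col-0, and of those called lower 1747 were, 82.2% and 59.3%. In opposite directions 4 genes were called. The difference between the 2 changes was tested as an interaction, which was positive for 17 genes (0.117%) and negative for 178 (1.22%), 195 in all (1.34%). The 2 genotypes were sequenced in separate lanes and runs, which cannot be told apart from genotype. Of the 178, 174 were called higher in Col-0, and in ein2-5 68 were called higher, 7 lower and 103 not called, with median log2 changes of 3.23 in Col-0 and 0.81 in ein2-5. Of the 17, 16 were called lower in Col-0, and the medians were -4.01 in Col-0 and -0.66 in ein2-5. Both sets were chosen by the interaction, so which genotype has the higher median follows from the choice. With only the 12 libraries compared in the fit, 1 gene passed, and without Col-0 water replicate 2, 46 of the 195 kept their call. With the lanes of each genotype as a block 487 genes passed, and with scaling by total tags 81, of which 21.0% were positive where TMM had 8.7%.

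In the gene lists, 6 of 18 PTI output markers, 10 of 50 WRKY genes and 6 of 23 genes of the tryptophan route had a negative interaction, and 1 WRKY gene a positive one. The level in water differed between the genotypes for several of them. WRKY53 had 130.0, 83.5 and 154 TPM in ein2-5 water and 96.7, 87.3 and 99.4 TPM at 120 min, but 33.6, 3.22 and 30.9 TPM in Col-0 water and 213, 92.5 and 165 TPM at 120 min (interaction -3.17 ± 0.53, adjusted p = 6.64e-05). Its water libraries thus did not overlap between the genotypes, while the libraries at 120 min did. WRKY30 was alike in this, at 17.9 ± 11.2 TPM in ein2-5 water, 0.61 ± 0.56 TPM in Col-0 water and 13.3 ± 1.31 and 19.2 ± 6.16 TPM at 120 min. MYB51, an activator of indole glucosinolate synthesis, had similar water levels, 41.0 ± 22.0 and 43.0 ± 8.11 TPM, and reached 36.6 ± 14.1 TPM in ein2-5 and 209.8 ± 24.8 TPM in Col-0 (interaction -2.46 ± 0.44, 0.000253). WRKY53, WRKY30, MYB51, LOX4, which starts jasmonate synthesis, and PUB23, a relative of PUB22, kept this call with each of the 12 libraries left out in turn. FRK1 was not called in the interaction (-1.88 ± 0.71, 0.156).

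**Figure D4:**
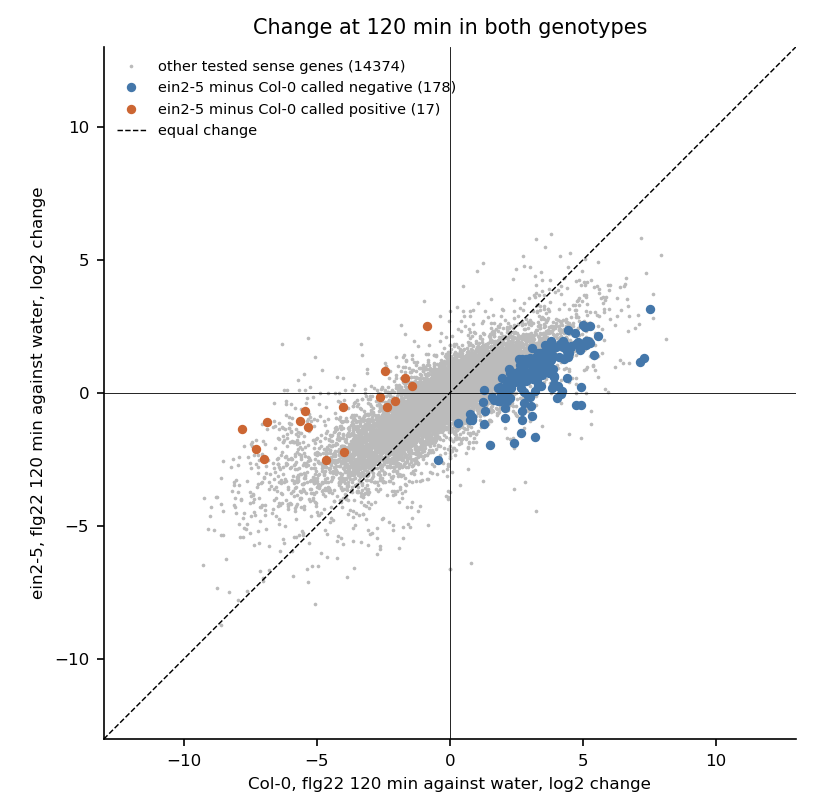
Log2 change from water to 120 min flg22 of 14569 genes in Col-0 (horizontal) and ein2-5 (vertical), with 14374 genes in grey, 178 with a negative interaction in blue and 17 with a positive interaction in orange. The blue genes lie mostly to the right and below the diagonal, with medians of 3.23 in Col-0 and 0.81 in ein2-5, and the orange ones to the left and above it. Their side of the diagonal follows from the sign of the interaction by which they were chosen.

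At 120 min flg22 itself, ein2-5 was higher than Col-0 for 223 genes (1.53%) and lower for 257 (1.76%), 480 in all (3.29%), and 174 of them kept their call with each of the 6 libraries left out. With only these libraries in the fit 260 were called. The share of calls that were higher was 46.5%, or 57.2% with organelle loci left out of the scaling. Genes of ethylene signalling were among them. EBF2, an F-box protein that removes EIN3 and is itself induced by ethylene, had 16, 23.5 and 18 TPM in ein2-5 and 122, 123 and 143 TPM in Col-0 (log2 -2.76 ± 0.34, adjusted p = 7.20e-09). The receptor genes ERS1 and ETR2 were lower in ein2-5 (ERS1 -3.14 ± 0.47, 1.25e-06), ETR2 having 0 tags in ein2-5 in water and at 120 min, whereas EBF1 was higher, at 130.4 ± 34.6 against 37.4 ± 2.27 TPM (1.80 ± 0.29). PR4 stood at 54.7 ± 20.5 TPM against 346 ± 87.9 TPM in Col-0 (-2.65 ± 0.37, 1.70e-07). ORS1 and ARL, of the organ size family of ARGOS, and EBP, an ERF family factor, were the most strongly lower. ORS1 had 433 tags in Col-0 and 0 in ein2-5, at least 245-fold higher in Col-0, ARL 629 and 6 tags, and EBP 472 and 12 tags. CYP71B22 and the cupin gene AT5G38940 followed, at least 27.7- and 28.8-fold higher in Col-0.

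The tryptophan route was the list with the most genes lower in ein2-5 at 120 min, 13 of 23 and none higher. CYP79B2 had 92.7, 56.2 and 24.7 TPM in ein2-5 and 859, 722 and 1111 TPM in Col-0 (log2 -3.96 ± 0.58, adjusted p = 6.98e-07). ASA1, the first enzyme of tryptophan synthesis, had 272, 236 and 126 TPM and 1020, 788 and 1129 TPM (-2.21 ± 0.42, 0.000177). MYB122, a regulator of indole glucosinolates, had 3 tags in ein2-5 and 110 in Col-0. For CYP79B2 and ASA1 every ein2-5 library lay below every Col-0 library, and 9 of the 13 genes kept their calls with each library left out. PAD3 at the end of the route was not called, with 99.2 ± 69.1 against 274 ± 102 TPM (0.202). In the other direction, 6 of 22 salicylic acid genes were higher in ein2-5 and none lower. WRKY62 had 52.7, 62.1 and 53.3 TPM against 2.33, 3.65 and 1.23 TPM in Col-0 (4.49 ± 0.58, 5.65e-08), and was the 1 of the 6 that kept its call, and PAD4, a lipase-like regulator, had 63.6 ± 21.6 against 13.3 ± 4.5 TPM. The jasmonate gene LOX2 was higher in ein2-5, at 274 ± 17.9 against 39.9 ± 19.5 TPM (2.77 ± 0.46, 1.40e-05). The 5 largest differences in favour of ein2-5 were those of AT1G21520, AT1G33950, AT1G66100, AT3G28510 and RWP1. AT1G66100, a thionin, had 103, 71.3 and 88.7 TPM in ein2-5 and 3 tags in all in Col-0, a ratio of 73.1 (24.8 to 356), and RWP1, a suberin acyltransferase, 172 and 2 tags, a ratio of 50.7 (13.8 to 422).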

How the data were processed

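Leaf disc RNA was sequenced by EXPRSS, and the authors filtered reads for quality and artefacts with FASTX. They aligned the reads with Bowtie 0.12.8 to the TAIR10 genome, and to transcripts where the genome gave no match. Tags were assigned to genes with Perl scripts, and expression was tested with baySeq in R 2.15.3. The deposited values are expected counts of tags per gene, sense and antisense apart, because a tag that matched up to 10 genes was divided equally among them, so that near-identical genes such as BIP1 and BIP2 share tags. The counts were rounded to whole tags. Features were kept with edgeR's filterByExpr by group (minimum count 10, minimum total 15), which left 14569 sense genes and 2247 antisense transcripts. They were fitted with edgeR 4.0.16 in R 4.3.3 by the quasi-likelihood F-test on all 96 libraries with 1 term for each of 32 groups, TMM factors (0.682 to 1.36) and a common dispersion of 0.0866. Two-sided p-values were adjusted by Benjamini-Hochberg over sense and antisense features together and called under 0.01. The SE of a log2 change is its size over the square root of F. For a group with 0 tags the floor was 3 tags over the group, and for 1 to 3 tags the ratio has an exact 95% interval that covers counting error only.

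Groups were taken from the sample titles. The 96 libraries filled 12 lanes of 8, with 1 lane for each genotype and replicate number, so within ein2-5 a number marks a shared lane. Deviations from the group means of the 5000 most abundant genes correlated between same-lane libraries of water and 120 min by 0.524, 0.405 and 0.678, so the numbers were taken to pair these libraries, and the blocked value is given where it changes the call of a named gene or moves a count by over 1.5 times. The block is a term for each lane within a genotype, so it removes lane differences from changes within a genotype. Across genotypes the numbers do not pair. Counts were simulated from the ein2-5 water means and the ein2-5 tag totals, without lane effects. Fewer genes were changed there than were called here. In that simulation 43 of 50 genes raised 4-fold and 31 of 50 lowered 4-fold were called, and 6 and 4 of 50 changed 2-fold. DESeq2 1.42.0, RLE size factors, scaling by total tags, no filter, organelle loci left out, only the groups compared, the block and each library left out in turn were the alternatives. Leaving out each ein2-5 lane was added after the plastid rRNA share was seen to differ between lanes.

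The named genes are EIN2, the 8 largest rises and 8 largest falls with at least 10 TPM and no overlap, up to 4 called members of each list per direction with uncalled exceptions, and the 5 largest differences each way in the other comparisons. Further list members, such as FRK1, FLS2, MPK3, WRKY33, WRKY53, C4H, MYB51, CYP79B2 and EBF2, were named for their known roles, or because they kept a call, after their values were seen. The comparison and the lists were chosen with earlier results of these data known. Sequences were not used here.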

Additional observations from a re-analysis of the deposited data

Results flagged for a closer look

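The 10 largest differences between the change of ein2-5 and that of Col-0 from water to 120 min flg22 were set apart by the interaction test itself. Negative values, a lower change in ein2-5, were found for AT1G05675, a glucosyltransferase gene that shares tags with a close relative (-4.70 ± 0.74, adjusted p = 3.97e-05), GSTU12, a glutathione transferase (-5.98 ± 1.28, 0.00245), AT2G31345 (-5.97 ± 1.37, 0.00535), FAMT, a methyltransferase (-4.85 ± 0.78, 4.39e-05) and WRKY30 (-5.17 ± 0.98, 0.00064). Positive values were found for AT1G78020 (5.18 ± 0.77, 1.55e-05), AT4G15840 (5.78 ± 1.39, 0.00812), AT4G21870 (4.57 ± 0.80, 0.000173), AT4G32290 (6.47 ± 1.33, 0.00163) and FP6 (4.78 ± 1.02, 0.00228). AT4G15840 and AT4G32290 had 0 tags in Col-0 at 120 min and AT2G31345 had 0 in Col-0 water, so their fitted values are no bounds. With only the 12 libraries compared in the fit all 10 lost their calls. AT1G05675, AT1G78020, AT4G21870, FAMT and WRKY30 kept them with each of the 12 libraries left out in turn, while GSTU12 had an adjusted p of 0.355 without ein2-5 water replicate 1.

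Antisense transcripts lie outside the main measurement, and 169 of 2247 tested (7.52%) were called between water and 120 min in ein2-5. Of these, 95 were higher and 74 lower. The sense gene was tested for 143 of them and called for 109, in the same direction in 108 cases. The antisense transcript of SEP2, a stress-induced thylakoid protein, had 144 tags in water and 0 at 120 min.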

How the results depend on the processing

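The count of genes called at 120 min against water, 3405, became 1131 when the fit held just these 2 groups, 4550 with the replicate block, and 1340 to 3167 with a library or lane left out. The share of calls that were higher, 37.6%, became 48.3% with no filter and 51.2% without lane 1. For 120 against 60 min the count of 1067 became 361 when the fit held just the libraries compared, 1857 with the block and 475 to 888 with libraries left out. For 180 against 120 min the count of 33 became 67 with DESeq2, 94 with no filter, 0 when the fit held just the libraries compared, 146 with the block, 18 with scaling by total tags and 2 to 23 with libraries left out. For the interaction with Col-0 the count of 195 became 352 with DESeq2, 1 when the fit held just the libraries compared, 487 with the block, 81 with scaling by total tags and 35 to 327 with libraries left out. For ein2-5 against Col-0 at 120 min the count of 480 became 260 when the fit held just the libraries compared, 1067 with the block and 222 to 435 with libraries left out, and its share higher, 46.5%, became 62.3% with no filter. Numbers do not pair across genotypes, and in that last fit the block averages over the lanes of each genotype and takes the spread between lanes out of the error. The cause was not tested, beyond the smaller number of libraries where some were left out. Of 153 genes of the lists and named genes called at 120 min against water, 49 kept their call under every alternative, as did 10 of 10 named for 120 against 60 min, 0 of 10 for 180 against 120 min, 0 of 10 for the interaction and 9 of 10 for ein2-5 against Col-0. No direction of a called gene turned. The block ended no call of a single gene and added 52. In the simulation most 2-fold changes were not called. Its fit held only ein2-5 libraries and fewer changed genes, so detection of 2-fold changes in the real comparison was not measured. The smallest log2 change called at 120 min against water was 0.58 in size.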

Other observations

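Several lists of growth and metabolism gave few calls or none at 120 min against water in ein2-5. None of 9 tested clock genes was called by edgeR or DESeq2 (median log2 change 0.02, 3 at an unadjusted p under 0.05), and 2 were called higher with the replicate as a block. The list has 14 members, and CCA1, LHY, RVE1, RVE8 and PRR9 had too few tags to be tested. They had 2, 5, 11, 8 and 4 tags in water and 0, 0, 1, 1 and 0 tags at 120 min, so the median leaves out members that were all lower. None of 6 tested genes of aliphatic glucosinolates, the methionine-derived defence compounds, was called by either tool (median -0.98, 4 at an unadjusted p under 0.05), and 1 was higher and 1 lower with the block. None of 6 tested expansin genes, which loosen cell walls, was called by either tool (median -1.14, 2 at an unadjusted p under 0.05). The expansin median was -0.60 with 1 member, at 0 tags at 120 min, set to its bound. Of 24 Aux/IAA and 32 expansin genes listed, 10 and 6 had enough tags to be tested. Of 3 tested SAUR genes, 1 was called higher.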
